A study of Mus musculus with 12 samples.

Results

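The Dlk1-Meg3 cluster is an imprinted domain of mouse chromosome 12, and it was followed here across 4 populations of MIN6 cells through the genes Dlk1, Meg3, Rtl1, Rian and Mirg. Every probe set whose platform annotation gives exactly 1 of these 5 symbols was taken, which gave 18 of 36701 probe sets once controls were set aside. Meg3 had 9 of them, Mirg 4, Dlk1 3, and Rian and Rtl1 1 each. MIN6 is a β-cell line from an insulinoma of a transgenic mouse in which islet β cells express the SV40 T antigen, so all 4 populations carry this transgene. The low-passage parental cells, Pr-LP, had been passaged from 17 to 20 times and the high-passage ones, Pr-HP, from 35 to 40 times. Clone 4 cells were taken at the same low range as C4-LP, and as C4-HP after between 40 and 50 passages. Clone 4 is a single subclone that was picked by limiting dilution from parental cells of low passage, and every culture received the same medium. The study treats Pr-HP as cells that have lost glucose-stimulated insulin secretion (GSIS), and the other populations as cells that keep it. Total RNA of each population was hybridized to a set of 3 Affymetrix U74 version 2 mouse chips, named A to C, with 1 array for each population and chip, 12 arrays in all. There were no replicates, so a difference between 2 arrays has no error of its own.

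The genes of an imprinted domain are expressed mainly from 1 parental copy. In this domain the protein-coding genes Dlk1, Rtl1 and Dio3 are expressed from the paternal chromosome, and the non-coding RNAs Meg3 (also called Gtl2), Rian and Mirg from the maternal one. A methylated region between Dlk1 and Meg3 sets which copy is used. Dlk1 encodes a transmembrane protein with EGF-like repeats, related to the Notch ligands, that is known from preadipocytes and is present in islet β cells. Meg3 is a long non-coding RNA, Rian is a host of small nucleolar RNAs, and Mirg is a host of microRNAs. Rtl1 encodes a protein derived from a retrotransposon and is needed in the placenta, and microRNAs are made from the strand opposite to it.

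The 250 bases before an annotated start of Dlk1 and before the first of 2 annotated starts of Meg3 are shown because these genes held the 3 probe sets with the largest differences. Both were taken from RefSeq (GRCm38.p6, plus strand), and capitals mark the letters of the motifs that were searched on both strands.
Dlk1 (chr12:109452573-109452822): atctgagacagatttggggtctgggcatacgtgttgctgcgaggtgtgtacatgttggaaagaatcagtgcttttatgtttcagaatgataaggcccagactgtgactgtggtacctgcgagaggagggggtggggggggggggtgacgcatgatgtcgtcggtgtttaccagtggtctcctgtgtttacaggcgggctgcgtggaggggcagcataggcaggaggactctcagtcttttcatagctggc
Meg3 (chr12:109540746-109540995): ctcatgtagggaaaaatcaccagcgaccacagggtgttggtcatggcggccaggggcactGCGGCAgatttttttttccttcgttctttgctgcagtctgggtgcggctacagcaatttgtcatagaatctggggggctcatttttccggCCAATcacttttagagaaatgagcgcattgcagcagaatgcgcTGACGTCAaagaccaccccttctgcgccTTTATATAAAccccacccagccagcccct
The motifs were the TATA box (TATAAA), the CCAAT box (CCAAT), the cAMP response element (TGACGTCA), the GC box (GGGCGG) and the core of the ZFP57 site (TGCCGC). The Meg3 window held the TATA box 25 to 20 bases before the start, with the same motif on the other strand overlapping it at 29 to 24 bases. It also held the cAMP response element at 57 to 50 bases, the CCAAT box at 100 to 96 bases, and the ZFP57 core on the other strand at 190 to 185 bases. The GC box was in neither window, and none of the other motifs was in that of Dlk1. Among 32851 mouse promoter windows of this length, 12.4% held the TATA box, 33.8% the CCAAT box, 1.55% the cAMP response element, 32.7% the GC box and 8.68% the ZFP57 core. The Dlk1 window held 8 CG pairs and the Meg3 window 10, against a median of 6 over all windows. The window before the second annotated start of Meg3 (chr12:109545148-109545397) held 0 CG pairs and none of the motifs. A match of letters describes the window only.

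MicroRNAs are the products of the maternal transcripts. RefSeq places 57 hairpins and 112 mature microRNAs between the outer ends of Dlk1 and Mirg, with 10 hairpins inside the span of Mirg, 15 inside that of Rtl1, 3 in Rian and 1 in Meg3. The mature sequences below are shown as examples of what Mirg and the strand opposite to Rtl1 encode, and the capitals mark the seed (bases 2 to 8). All of them lie on the plus strand of GRCm38.p6. The first 4 and the following pair lie in Mirg, and that pair shares its seed. The last 2 lie within the span of Rtl1. The strand read by the probe set named Rtl1 is not known here, so its signal cannot be taken to stand for the RNA they come from.
miR-154-5p (chr12:109738438-109738459): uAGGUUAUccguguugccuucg
miR-377-3p (chr12:109740553-109740574): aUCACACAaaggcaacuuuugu
miR-409-3p (chr12:109743204-109743225): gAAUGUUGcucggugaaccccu
miR-410-3p (chr12:109743764-109743784): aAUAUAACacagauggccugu
miR-453 (chr12:109735669-109735692): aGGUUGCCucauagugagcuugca
miR-496a-5p (chr12:109739132-109739152): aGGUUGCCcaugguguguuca
miR-127-3p (chr12:109592888-109592909): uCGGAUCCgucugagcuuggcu
miR-136-5p (chr12:109595331-109595352): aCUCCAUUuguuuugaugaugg
The mature microRNAs themselves were not measured by these chips.

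The signal of a probe set is given as its deposited intensity, in the linear units of the files. Signals of different probe sets cannot be compared with each other, because each has its own probes. Values under the 20th percentile of a chip were raised to it before any ratio was taken, and this floor was 67.3, 58.6 and 29.1 units for the chips in alphabetical order. Array medians ran from 214 to 216 units for chip A, 162 to 163 for chip B and 92.5 to 92.9 for chip C. Of the 14 genes listed as β-cell markers 11 were measured, and the weakest of them was at 425 units in Pr-LP, 499 in Pr-HP, 464 in C4-LP and 570 in C4-HP, above every floor. None of these 11 genes differed 3-fold between Pr-HP and the mean of the other populations. Over all tested probe sets 0.3% were lower by this measure and 0.416% higher. Against single populations 3-fold was passed by Pcsk1, higher in Pr-HP than in Pr-LP (log2 difference 1.70). Slc2a2 passed it as well, lower in Pr-HP than in C4-HP (-1.81). The list did not hold Ins1, which the paper reports as lower in Pr-HP by quantitative RT-PCR. In the ratio of 3′ to 5′ probe sets of Gapdh, a measure of RNA quality, Pr-HP was at 0.867, 0.953 and 1.16 for the chips in alphabetical order, where the other populations ranged from 0.968 to 1.05, from 1.01 to 1.09 and from 1.19 to 1.31. This ratio was thus lowest in Pr-HP on each chip. For Actb, Pr-HP had a ratio of 1.15 on chip A and 1.28 on chip B, below the other populations, but on chip C it had 1.34, above the 1.30 of C4-LP. The part of RNA quality in the results below was not tested.

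Dlk1 had the largest difference of all tested probe sets. The signal of 101975_at on chip A was 12820 units in Pr-LP, 395 in Pr-HP, 15871 in C4-LP and 9139 in C4-HP. Pr-HP stood far below the other populations, whose mean was 12610 ± 3371 units (SD over 3 populations), and its signal was still above the floor. The ratio to Pr-HP was 32.5-fold for Pr-LP, 40.2-fold for C4-LP and 23.1-fold for C4-HP. On the log2 scale Pr-HP minus the mean of the other populations was -4.96, the lowest of the 23340 probe sets tested. The paper also reports Dlk1 as lower in Pr-HP by quantitative RT-PCR. With bisulfite sequencing it found the Dlk1 locus less methylated in Pr-HP than in the other populations. In bulk RNA, fewer cells that express a gene and less RNA in each cell cannot be told apart.

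The other probe sets of Dlk1 gave the same order for Pr-HP with much smaller distances. The signal of 108265_at on chip B was 143 units in Pr-LP, 108 in Pr-HP, 261 in C4-LP and 142 in C4-HP. That of 169192_i_at on chip C was 218 units in Pr-LP, 153 in Pr-HP, 240 in C4-LP and 209 in C4-HP. Pr-HP was lowest and C4-LP highest in each of the 3 Dlk1 probe sets. The log2 difference between Pr-HP and the mean of the other populations was -0.69 for 108265_at and -0.54 for 169192_i_at. In the deposited values the 3 probe sets of Dlk1 thus disagreed in size by more than 4 units of log2. The paper prints other intensities for 169192_i_at, with Pr-HP more than 5-fold below the mean of the other populations.

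Meg3 was measured by the most probe sets, and 2 of its 9 were more than 3-fold lower in Pr-HP. The signal of 160172_at on chip A was 1452 units in Pr-LP, 555 in Pr-HP, 2202 in C4-LP and 1739 in C4-HP. Pr-HP was the lowest, below a mean of 1798 ± 378 units (SD over 3 populations), and the log2 difference was -1.67. The signal of 160173_at on the same chip was 388 units in Pr-LP, 55.3 in Pr-HP, 761 in C4-LP and 637 in C4-HP. Here Pr-HP lay under the floor, so that Pr-LP was at least 5.77-fold higher, C4-LP at least 11.3-fold and C4-HP at least 9.46-fold. Its log2 difference after the floor was -3.09, which was the 7th lowest of all tested probe sets, while 160172_at was the 60th lowest.

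In the deposited values the other 7 probe sets of Meg3 differed by less than 3-fold. For 164148_at the paper prints other intensities, with Pr-HP more than 5-fold below the mean of the other populations. The signal of 138993_r_at on chip C was 43.8 units in Pr-LP, 20.4 in Pr-HP, 83.3 in C4-LP and 63.2 in C4-HP. Its value in Pr-HP was again under the floor, and C4-LP was at least 2.86-fold higher, C4-HP at least 2.17-fold and Pr-LP at least 1.51-fold. On chip B the signal of 164148_at was 88.0 units in Pr-LP, 63.6 in Pr-HP, 156 in C4-LP and 92.6 in C4-HP. On chip C the signal of 136641_at was 72.1 units in Pr-LP, 56.0 in Pr-HP, 94.9 in C4-LP and 73.3 in C4-HP. These 3 probe sets placed Pr-HP lowest and C4-LP highest, as did 160172_at and 160173_at.

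Smaller differences were seen in the remaining Meg3 probe sets. The signal of 165360_i_at on chip B was 555 units in Pr-LP, 486 in Pr-HP, 489 in C4-LP and 546 in C4-HP. The signal of 166581_r_at on chip C was 400 units in Pr-LP, 354 in Pr-HP, 436 in C4-LP and 444 in C4-HP. Their log2 differences were -0.12 and -0.27, inside the central 95% of the tested probe sets of their chips. On chip B the signal of 109661_at was 137 units in Pr-LP, 163 in Pr-HP, 168 in C4-LP and 174 in C4-HP, and here Pr-LP and not Pr-HP was lowest. The signal of 107512_at was between 86.0 units in Pr-HP and 96.9 in C4-LP, and this was the only member probe set that stayed under the level a probe set had to exceed on at least 1 array to be tested (the 40th percentile of the chip, 122 units on chip B).

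In the deposited values Mirg was lower in Pr-HP by less than 2-fold in 3 of its 4 probe sets. The paper lists Mirg among the genes more than 5-fold lower in Pr-HP. The intensities it prints for 112937_at differ from the deposited ones, and the reason was not tested. The signal of 112937_at on chip B was 283 units in Pr-LP, 191 in Pr-HP, 347 in C4-LP and 359 in C4-HP. The signal of 170430_f_at on chip C was 411 units in Pr-LP, 261 in Pr-HP, 453 in C4-LP and 438 in C4-HP. The other populations lay close together in this probe set, with a mean of 434 ± 21.2 units (SD over 3 populations), and Pr-HP stood below all of them. The signal of 170091_f_at on chip C was 260 units in Pr-LP, 187 in Pr-HP, 283 in C4-LP and 326 in C4-HP. The log2 differences of these probe sets were -0.78, -0.74 and -0.62. The fourth probe set, 169439_r_at on chip C, went the other way, with 591 units in Pr-LP, 683 in Pr-HP, 683 in C4-LP and 631 in C4-HP and a log2 difference of 0.11.

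Rian and Rtl1 were each read by 1 probe set. By quantitative RT-PCR the paper reports Rian as lower in Pr-HP. It names Rtl1 as lower there too, without showing the data. The signal of Rian 129202_r_at on chip C was 238 units in Pr-LP, 173 in Pr-HP, 231 in C4-LP and 203 in C4-HP. Pr-HP was lowest, with a log2 difference of -0.37. The signal of Rtl1 113887_at on chip B was 342 units in Pr-LP, 330 in Pr-HP, 334 in C4-LP and 334 in C4-HP. The log2 difference of Rtl1 was -0.03, so that the 4 populations were within 1.04-fold of each other. The annotated span of Rtl1 overlaps those of Meg3 and Rian, and which strand each probe set reads could not be read from the sources used here, so a signal assigned to one of these genes may hold RNA of another.

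**Figure D1:**
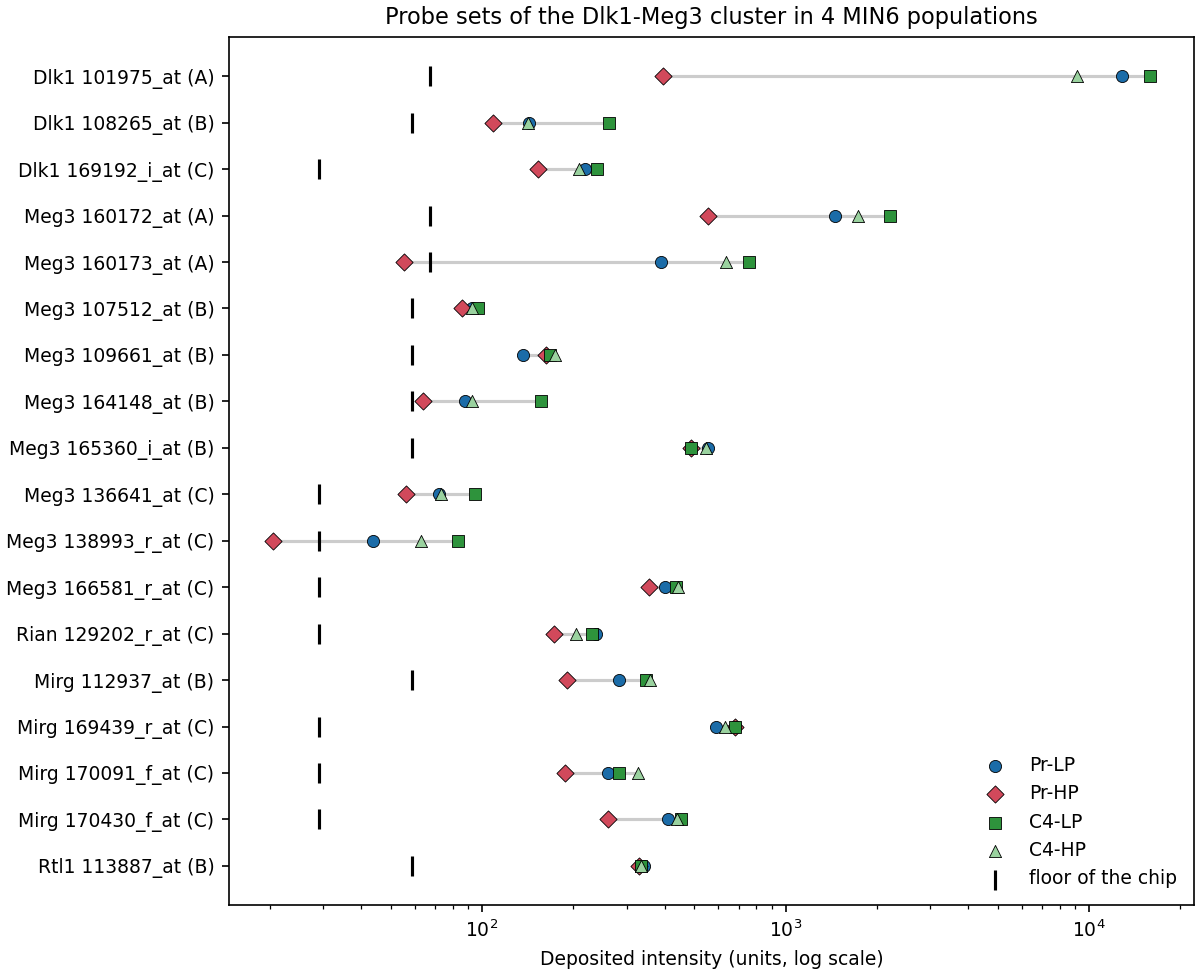
Deposited intensity (units, log scale) of the 18 probe sets of Dlk1, Meg3, Rian, Mirg and Rtl1 in the 4 populations, with 1 array per point, the chip in brackets and a black tick at the floor of the chip. Grey lines join the lowest and the highest population. Pr-HP (red diamonds) is at 395 units for Dlk1 101975_at, where the other populations lie between 9139 and 15871, while the 4 points of Rtl1 fall on each other.

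Counted over probe sets, Pr-HP had the lowest deposited signal in 16 of the 18 member probe sets, in all 3 of Dlk1, 8 of 9 of Meg3, 3 of 4 of Mirg, and those of Rian and Rtl1. Among all tested probe sets Pr-HP was the lowest in 28.2%. C4-LP was the highest in 11 of the 18, against 22.8% of all tested probe sets. Probe sets of 1 gene read the same RNA and are not independent of each other. The median log2 difference between Pr-HP and the mean of the other populations was -0.58 over the 18 member probe sets and 0.00 over all tested probe sets (-0.00159). By gene the median was -0.69 for Dlk1, -0.68 for Mirg and -0.51 for Meg3.

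A probe set counted as lower when Pr-HP was more than 3-fold below the mean of the other populations on the log2 scale. Of the 18 member probe sets 3 did so, Dlk1 101975_at and Meg3 160172_at and 160173_at, against 0.3% of all tested probe sets. All 3 are on chip A. The ratio of Dlk1 101975_at to Pr-HP was 31.1-fold by this measure, that of Meg3 160172_at was 3.19-fold, close above the threshold, and that of Meg3 160173_at was at least 8.51-fold. The nearest probe set below the threshold was Meg3 138993_r_at, at least 2.11-fold. With the floor at 1.0 unit in place of the 20th percentile it passed as well, which made 4.

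Against the single populations the counts were alike. Relative to Pr-LP, 2 member probe sets were more than 3-fold lower in Pr-HP, against 0.467% of all tested probe sets. Relative to C4-LP 3 were, against 0.51%, and relative to C4-HP 3 were, against 0.304%. The probe set missing against Pr-LP was Meg3 160172_at, where the ratio was 2.62-fold. These comparisons share the Pr-HP arrays, so they are not separate measurements of Pr-HP.

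To set these differences against the spread on each chip, the central 95% of the tested probe sets of that chip was taken. For Pr-HP against the mean of the other populations this log2 range ran from -0.68 to 0.80 for chip A, from -0.66 to 0.78 for B and from -0.64 to 0.40 for C. Of the 18 member probe sets 8 lay below it and 0 above it. These were 2 of Dlk1 (101975_at and 108265_at), 4 of Meg3 (160172_at, 160173_at, 164148_at and 138993_r_at) and 2 of Mirg (112937_at and 170430_f_at). Rian and Rtl1 lay inside the range. Against Pr-LP 3 lay below the range, against C4-LP 9 and against C4-HP 7. For the 24 control probe sets on all 3 chips and above the floor on every array, the log2 difference of the same control varied between chips. This range was 0.12 at the median and at most 0.28. It compares chips for the same populations and does not measure error between cultures. The log2 differences of these controls between Pr-HP and the other populations themselves ran from -0.98 to 0.75.

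**Figure D2:**
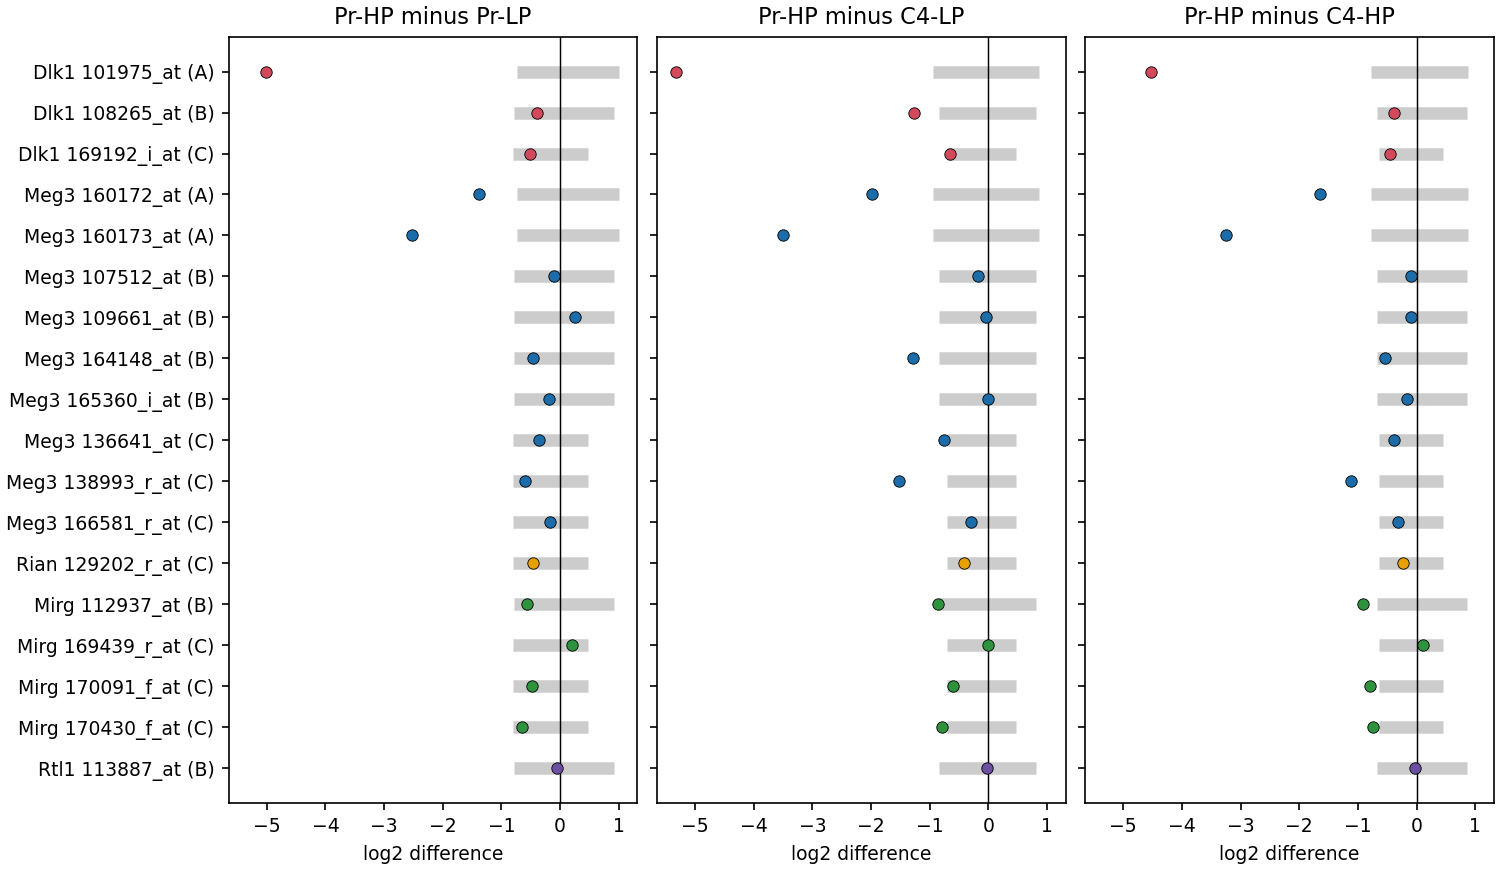
Log2 difference of Pr-HP minus Pr-LP, C4-LP or C4-HP (x axis) for each member probe set, coloured by gene, with a grey bar over the central 95% of the tested probe sets of its chip. Dlk1 101975_at lies near -5 in all 3 panels, Meg3 160172_at and 160173_at lie left of the bars throughout, and Rtl1 lies at 0.

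limma was fitted to log2 intensities with the other populations as 1 group against Pr-HP, and Benjamini-Hochberg adjustment covered the 23340 tested probe sets of the 3 chips. No member probe set passed an adjusted p of 0.05, where 0.0171% of all tested probe sets passed as lower in Pr-HP. Without adjustment, 9 of the 17 tested member probe sets had a p under 0.05, against 9.79% of all tested probe sets, and no other tool was run. For Dlk1 101975_at limma gave a log2 difference of -4.96 with a standard error of 0.35 and an adjusted p of 0.0685. Meg3 160173_at had -3.09 with a standard error of 0.43 and an adjusted p of 0.202, and Meg3 160172_at had -1.67 with 0.27 and 0.252. Of the other members Mirg 170430_f_at had the lowest adjusted p in limma, 0.162. The fit takes 3 different populations as 1 group and leaves 2 residual degrees of freedom, and it assumes that the single Pr-HP array varies like the others. Whatever was particular to the Pr-HP culture or its arrays cannot be told apart from the loss of GSIS.

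**Figure D3:**
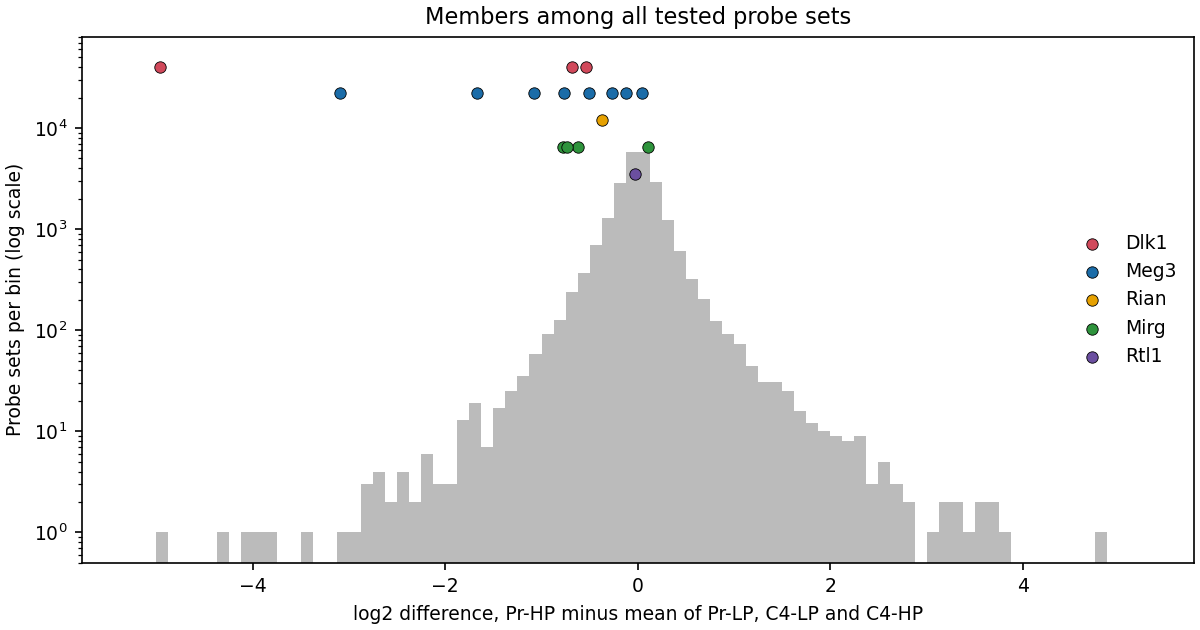
Number of probe sets (log scale) in bins of the log2 difference of Pr-HP minus the mean of the other populations, over all 23340 tested probe sets (grey), with the 17 tested member probe sets as coloured points whose height separates the genes only. Dlk1 101975_at at -4.96 is in the leftmost bin that holds a probe set, and the members other than Rtl1, 1 of Mirg and 1 of Meg3 spread to the left of 0.

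Passage in clone 4 gave no difference of 3-fold among the members. Between C4-HP and C4-LP 0 of 18 member probe sets differed 3-fold in either direction, against 0.343% of all tested probe sets. In 3 of them C4-HP lay below the central 95% of their chip, as Pr-HP against Pr-LP did in 3. In Dlk1 101975_at the log2 difference was -0.80 in clone 4 and -5.02 in the parental cells. In Dlk1 108265_at it was -0.88 in clone 4 and -0.40 in the parental cells, and in Meg3 164148_at it was -0.75 and -0.47. The size of the difference was smaller in clone 4 than in the parental cells in 15 of the 18 member probe sets. It was larger in 3, which were the last 2 and Meg3 136641_at (-0.372 and -0.365). Over all tested probe sets the central 95% was also narrower in clone 4 on each chip. On chip B it ran from -0.67 to 0.51 in clone 4 and from -0.79 to 0.92 in the parental cells. The share of all tested probe sets with a smaller difference in clone 4 is not given here. In Dlk1 101975_at, C4-LP was 1.74-fold above C4-HP, and both were far above Pr-HP. The median over the 18 member probe sets was -0.15 in clone 4 and -0.46 in the parental cells, Pr-HP minus Pr-LP. No array is shared between these differences, but neither has replicates, and the difference between them was not tested.

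Between the low-passage populations, C4-LP and Pr-LP, 0 of 18 differed 3-fold, against 0.656% of all tested probe sets in either direction. The median was 0.25, with C4-LP higher. Meg3 138993_r_at and Dlk1 108265_at lay above the central 95% of their chips, and the signal of C4-LP in them was 1.90-fold and 1.83-fold that of Pr-LP. Meg3 160173_at was 1.96-fold higher in C4-LP and still inside the range of chip A, which reached 1.02 on the log2 scale. In the order of levels of Dlk1 101975_at, C4-LP and Pr-LP were neighbours that did not differ beyond that range (1.24-fold).

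**Figure D4:**
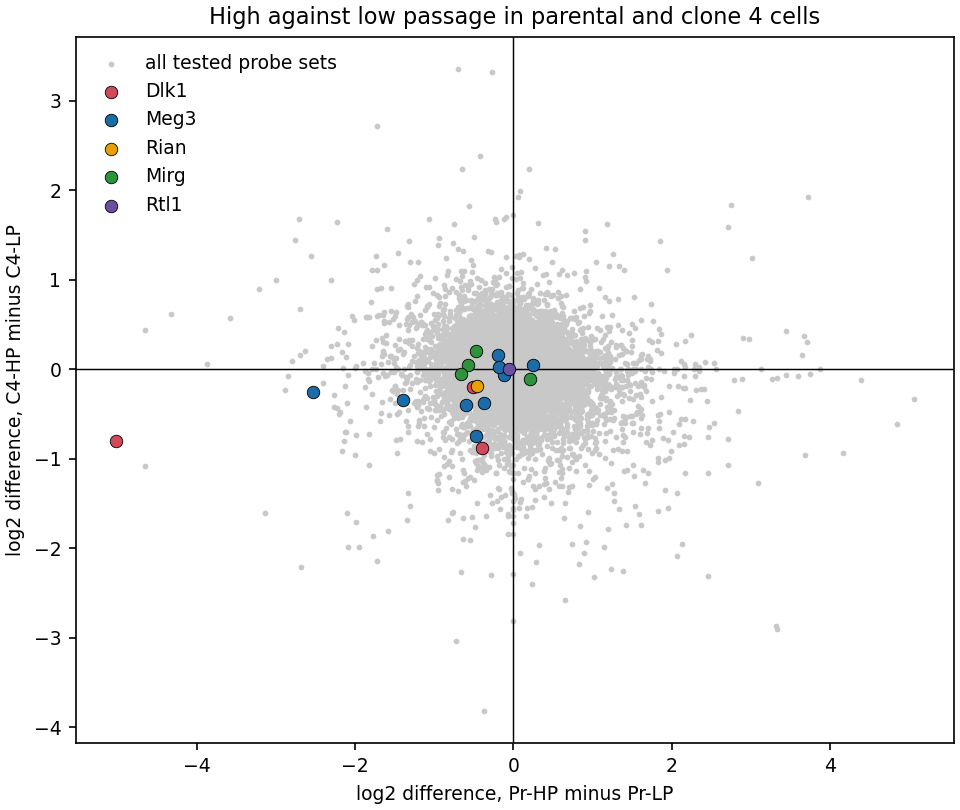
Log2 difference of Pr-HP minus Pr-LP (x axis) against C4-HP minus C4-LP (y axis), with all tested probe sets in grey and the 18 member probe sets coloured by gene. Dlk1 101975_at lies at -5.02 and -0.80, and Meg3 160173_at at -2.53 and -0.26, while the other members lie between -1.39 and 0.25 on the x axis.

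The genes around the cluster differed by less than 2-fold between Pr-HP and the mean of the other populations. The central 95% of all tested probe sets also lay within 2-fold on each chip. Against single populations some neighbours went further. Wars 98606_s_at had a log2 difference of 1.16 against Pr-LP, and Ppp2r5c 116092_at of -1.15 against C4-HP. Within 1 Mb of its outer ends 17 other genes had 33 probe sets, and all 33 were within 2-fold between Pr-HP and the mean of the other populations. Of these, 28 passed the filter on low values and 5 did not, and 3 of the 5 had all values at the floor. Of the 33, 2 lay below the central 95% of their chip and 0 above it. On the side of Dlk1, 9 genes with 16 probe sets had a median log2 difference of 0.00 (0.00314), with a range from -0.61 to 0.63. On the side of Mirg, 8 genes with 17 probe sets had a median of -0.05, with a range from -0.99 to 0.09. Begain, the next gene beyond Dlk1 on these chips, was at 515 units in Pr-LP, 596 in Pr-HP, 541 in C4-LP and 538 in C4-HP. Dio3, a paternally expressed gene of the same domain that encodes a deiodinase of thyroid hormone, was at 72.8 units in Pr-LP, 65.2 in Pr-HP, 61.0 in C4-LP and 60.0 in C4-HP. Its log2 difference was 0.02. The lowest neighbours were Ppp2r5c 116092_at, a regulatory subunit of a protein phosphatase, at -0.99, and Dync1h1 97333_at, the heavy chain of cytoplasmic dynein, at -0.69. These values are as large as those of the Mirg probe sets. Dync1h1 was at 1086 units in Pr-LP, 741 in Pr-HP, 1332 in C4-LP and 1187 in C4-HP, so that Pr-HP was lowest. The 5 other probe sets of Ppp2r5c lay between -0.43 and -0.01, and the highest neighbour was Wars 98606_s_at at 0.63.

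**Figure D5:**
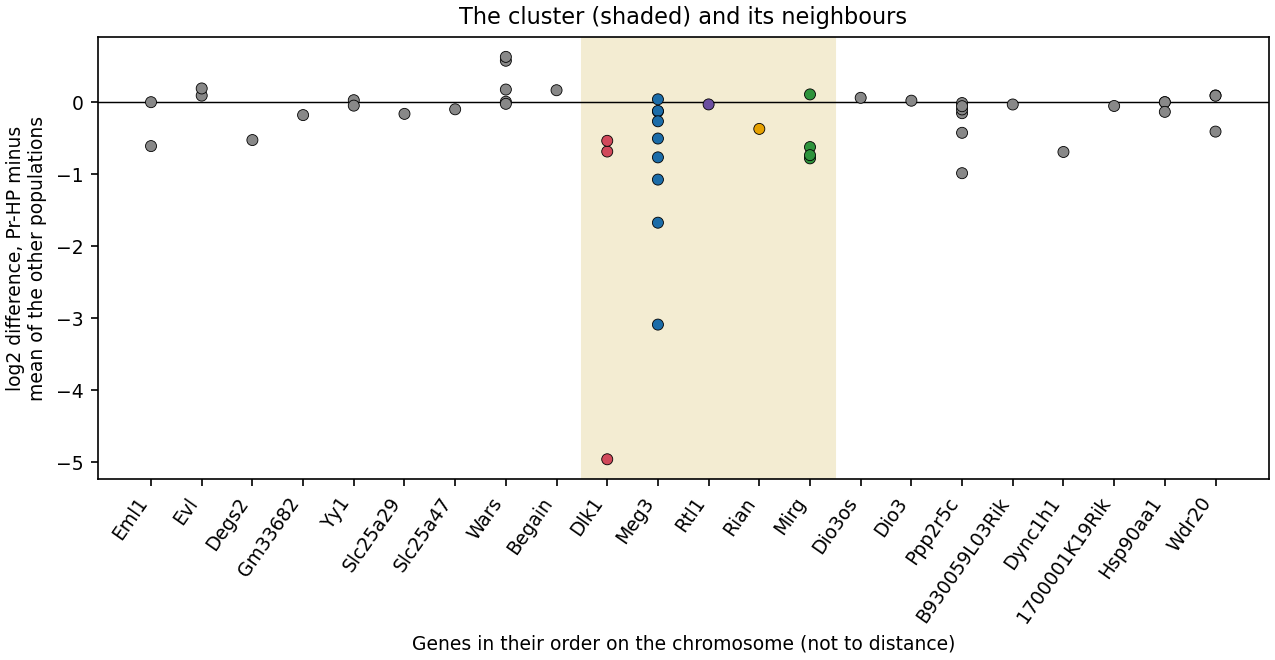
Log2 difference of Pr-HP minus the mean of the other populations (y axis) for each probe set of the 5 members (coloured, shaded area) and of 17 neighbouring genes (grey), in their order on the chromosome and not to distance. The neighbours lie between -0.99 and 0.63, and the points below that range belong to Dlk1 and Meg3.

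The listed genes of the pathway in which Dlk1 is placed held no difference of 3-fold. Of 26 genes listed for Dlk1 and Notch signalling 22 were measured by 44 probe sets, and 0 passed limma after adjustment. None was 3-fold lower or higher in Pr-HP, where 0.3% of all tested probe sets were lower and 0.416% higher. Of the 30 that entered the test 7 had an unadjusted p under 0.05, against 9.79% of all tested probe sets. The median log2 difference over the genes was 0.03, against 0.00 over all tested probe sets. Adam17, the protease that releases the outer part of Dlk1 from the cell surface, was at 150 units in Pr-LP, 161 in Pr-HP, 157 in C4-LP and 149 in C4-HP. The receptor Notch1 (97497_at) had a log2 difference of 0.03 and the receptor Notch2 (101342_at) of 0.04. Hes1, a target of Notch signalling, had a log2 difference of 0.17. The largest values in the list were those of Hey1, another Notch target (0.87, limma adjusted p = 0.327), of Rbpj, the transcription factor that Notch activates (0.86, limma adjusted p = 0.259), and of the Notch ligands Jag2 (-0.71, limma adjusted p = 0.240) and Dll1 (0.63, limma adjusted p = 0.334).

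Genes that act on imprinted domains held no difference of 3-fold either. Of 24 listed regulators 23 were measured by 46 probe sets, with 0 limma calls and a median log2 difference of 0.01. Past 3-fold were 0 probe sets, where only 0.3% of all tested probe sets were lower and 0.416% higher. Of the 35 that entered the limma test 1 had an unadjusted p under 0.05, against 9.79% of all tested probe sets. Below the central 95% of their chips lay 2 of the 46, of Tet1 and Dnmt3a, and above it 0. Tet1, an enzyme that oxidizes methylated cytosine, was at 85.5 units in Pr-LP, 29.4 in Pr-HP, 46.8 in C4-LP and 45.8 in C4-HP in 133204_at. Its log2 difference was -0.95, with Pr-HP just above the floor of 29.1 units. Tet1 95247_at, which did not enter the test, had 0.09, and the remaining Tet1 probe sets were under the floor in all populations. The maintenance methyltransferase Dnmt1 (101445_at) had -0.06 and the de novo methyltransferase Dnmt3b (115066_at) had 0.02. Dnmt3a, the other de novo methyltransferase, was at 846 units in Pr-LP, 337 in Pr-HP, 353 in C4-LP and 584 in C4-HP in 113658_at, a log2 difference of -0.73. Pr-HP and C4-LP were thus alike in this probe set, and Pr-LP was highest. Dnmt3a 100479_at had -0.25 and 166504_r_at had -0.03, while 161170_r_at was under the floor in all populations. Zfp57, which protects imprints through the sequence core named above, was at 139 units in Pr-LP, 162 in Pr-HP, 100 in C4-LP and 124 in C4-HP. Its partner Trim28 (93071_at) had a log2 difference of -0.01 and the insulator protein Ctcf of -0.09.

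Among other imprinted genes, 4 had probe sets more than 3-fold lower in Pr-HP. Of 22 listed imprinted growth genes 19 were measured by 36 probe sets, and 8 of these, from Plagl1, Nnat, Ndn and Peg3, were more than 3-fold lower in Pr-HP, while 0 were higher. Over all tested probe sets 0.3% were lower and 0.416% higher. Only Plagl1 166084_f_at passed limma, with a log2 difference of -3.89 and an adjusted p of 0.00926. This limma call was lost without Pr-LP (adjusted p of 0.0793), without C4-HP (0.379) and with the floor at the 40th percentile (0.0561), while the log2 difference stayed between -3.90 and -3.86. Plagl1 is an imprinted zinc-finger transcription factor. The median log2 difference over the measured genes of the list was -0.09. The list was drawn up with these results known, so its count is a description. Probe sets with a higher signal in Pr-HP were also among it, such as 99322_at of the imprinted potassium channel gene Kcnq1, at 155 units in Pr-LP, 221 in Pr-HP, 143 in C4-LP and 138 in C4-HP. In the other Kcnq1 probe set, 161796_r_at, the log2 difference was 0.04 and Pr-LP was highest. Igf2, the imprinted insulin-like growth factor, was at 13785 units in Pr-LP, 11886 in Pr-HP, 11393 in C4-LP and 14064 in C4-HP.

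The pattern of Dlk1 101975_at over the 4 populations was compared with those of all single-symbol probe sets of other genes, as the Euclidean distance of log2 values after each was centred on its own mean. The nearest were Cd24a at a distance of 0.67, Plagl1 at 1.11, Hepacam2 at 1.37, Nnat at 1.58 and Meg3 160173_at at 1.83. In Cd24a 100600_at, a glycoprotein of the cell surface, the signal was 2627 units in Pr-LP, 104 in Pr-HP, 2711 in C4-LP and 1279 in C4-HP, the same order as in Dlk1 for Pr-HP, C4-HP, Pr-LP and C4-LP. The pattern of Meg3 160172_at was nearest to those of Armcx4 (0.26), Dusp23 (0.37), Gprasp1 (0.37), Akap13 (0.39) and Kcnma1 (0.39), all measured once for each population. Likeness over 4 points is a description and carries no test.

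Markers of other cell types differed between the same populations. Gcg, the gene of the α-cell hormone glucagon, was at 502 units in Pr-LP, 10552 in Pr-HP, 3175 in C4-LP and 2915 in C4-HP in 165472_i_at. Of 5 α-cell genes 4 were measured by 8 probe sets, of which 3 (2 of Gcg and 1 of Maf) were 3-fold higher in Pr-HP and 1 (Ttr) was 3-fold lower. The summed signal of the 4 genes was 1078 units in Pr-LP, 10947 in Pr-HP, 6480 in C4-LP and 4429 in C4-HP. Of the duct genes 4 of 5 were measured, with a sum of 3135 units in Pr-LP, 3850 in Pr-HP, 2499 in C4-LP and 2520 in C4-HP, and Car2 alone was 3-fold higher in Pr-HP. Of the macrophage genes 5 of 6 were measured, with sums of 436, 2030, 443 and 442 units in the same order, and Cd68 alone was higher. Ptprc, which defines white blood cells, was under the floor in all populations (between 31.9 and 35.6 units in 101298_g_at). No marker was at 0. No gene of the delta cell, PP cell, acinar, fibroblast or endothelial lists differed 3-fold between Pr-HP and the mean of the other populations. Between single populations Ppy 94148_at of the PP cell list passed 3-fold, lower in C4-LP than in Pr-LP (log2 difference -1.61). Its signal was 361 units in Pr-LP, 128 in Pr-HP, 118 in C4-LP and 142 in C4-HP. The part of these markers in the lower signals of Dlk1 and Meg3 was not tested.

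The names of the probe sets carry a mark of how specific they are. The plain suffix _at is given where the probes were designed for 1 transcript, and the suffixes with _i_, _r_ or _f_ mark sets with incomplete or reduced rules of probe selection or shared within a family. Of the 18 member probe sets 10 had the plain suffix, and Pr-HP was lowest in 9 of them, with a median log2 difference of -0.73 and 3 past 3-fold. In the other 8 Pr-HP was lowest in 7, with a median of -0.45 and 0 past 3-fold. The only Rian probe set and 3 of the 4 Mirg probe sets are among these 8.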

How the data were processed

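Total RNA was primed with oligo(dT) carrying a T7 promoter, copied into biotin-labelled cRNA and hybridized to the U74 version 2 chips A, B and C, 12 arrays in all. The authors deposited 1 intensity for each probe set and array, on a linear scale. The labels and methods name GeneChip 5.1 software, while for the probe summary and the normalization between arrays the method is not given in the sources used. The values were used unscaled. For some member probe sets the paper prints intensities that differ from the deposited ones. Control probe sets (198) were left out. Of the other 36701 probe sets, 29131 had 1 gene symbol in the platform annotation, 724 several and 6846 none, and only those with 1 symbol were named. Populations were assigned from the sample labels.

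Values under the 20th percentile of a chip were raised to it. A probe set was tested if at least 1 array exceeded the 40th percentile of the chip. limma 3.58.1 in R 4.3.3 (lmFit and eBayes) was fitted within each chip, with Benjamini-Hochberg adjustment over the 3 chips, 2 residual degrees of freedom and between 1.93 and 2.47 prior degrees of freedom. It was tested on simulated data. Single arrays were compared as log2 ratios with a 3-fold threshold and no test. p-values measure the spread between the populations, and precision is limited by how few arrays there are. Tables were made with Python 3.11.15, pandas 2.3.3 and numpy 2.4.6, and plots with matplotlib 3.10.9.

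The member genes and all lists were chosen with earlier results of these data known. All member probe sets are given. Of the lists, genes past 3-fold, limma calls and genes that act on the cluster are named (Dnmt1, Dnmt3a, Dnmt3b, Zfp57, Trim28, Ctcf, Adam17, Notch1, Notch2, Hes1, Begain and Dio3), with the 5 nearest patterns for Dlk1 and for Meg3. The other genes of the lists with values were chosen after those values were seen. These were Hey1, Rbpj, Jag2, Dll1, Igf2, Kcnq1, Tet1, Ppp2r5c, Dync1h1, Wars, Pcsk1, Slc2a2 and Ptprc. A gene with several probe sets is represented in the lists by that of the highest mean. Other floors, scalings, filters, thresholds, a variance trend and the omission of each population were tried, and a count over plain _at probe sets alone was added after seeing the data. The reference assembly was used for gene order and sequences.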

Additional observations from a re-analysis of the deposited data

Results flagged for a closer look

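In 5 member probe sets the change with passage had opposite signs in parental and clone 4 cells. Over all tested probe sets the median change was near 0 in both, at 0.00163 in parental and 0.00395 in clone 4 cells. The share of all tested probe sets with opposite signs is not given here, so the count is a description. Each sign rests on 1 array per population, and the difference between them was not tested. For Mirg 170091_f_at the log2 change was -0.47 in parental cells and 0.20 in clone 4 cells, a difference of -0.67. For Mirg 112937_at it was -0.57 and 0.05, a difference of -0.62. For Mirg 169439_r_at it was 0.21 and -0.11, a difference of 0.32. For Meg3 165360_i_at it was -0.19 and 0.16, a difference of -0.35, and for Meg3 166581_r_at it was -0.17 and 0.03, a difference of -0.20. All 10 of these changes lay inside the central 95% of the tested probe sets of their chip.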

How the results depend on the processing

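The count of member probe sets more than 3-fold lower in Pr-HP than the mean of the other populations was 3. It ranged from 2 to 3 when each of the other populations was left out in turn, was 4 with the floor at 1.0 unit, and was 4 and 2 at thresholds of 2-fold and 5-fold. Against Pr-LP the count of 2 became 1 with the floor at the 40th percentile, which raises the Pr-HP signal of Meg3 160173_at. Among members 0 probe sets passed limma under every alternative run, and the count stayed at 0 without each population. The lowest adjusted p among members was 0.0685 and ranged from 0.0538 with quantile normalization to 0.379 without C4-HP. Over all probe sets limma called 19, and 108 with no filter, 32 with the floor at 1.0 unit, 26 with quantile normalization, 23 with scaled arrays, 11 with a variance trend, 3 without C4-LP, and 0 with the floor at the 40th percentile, without Pr-LP or without C4-HP. The sign changed for 2 members whose difference was near 0, Rtl1 113887_at between C4-HP and C4-LP with quantile normalization (from -0.00224 to 0.00564) and Meg3 109661_at between Pr-HP and the other populations without Pr-LP (from 0.04 to -0.07). No paired analysis was possible because each population has 1 array per chip and the labels give no replicate numbers. With 1 array per population, the error of a single difference was not measured.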
